A study of Mus musculus with 2 samples.

Results

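Described here are 8 markers of alternatively activated myeloid cells, Mrc1, Retnla, Chil3, Folr2, Cd163, Msr1, Ear2 and Cbr2, taken by gene symbol from the 31053 genes of the deposited matrix. Each symbol had 1 row, and each row's gene ID was the one that GENCODE gives to that symbol. The cells were immune cells of tumours that had grown for 2 weeks under the skin of C57BL/6 mice from injected MTC-Q1, a mouse oral cancer line. The injected cells were WT in the first group and lacked miR-21, a microRNA, in the second (miR-21 KO), so the knockout lay in the tumour cells and not in the host. All mice received 5 mg/kg cisplatin, a DNA-crosslinking drug, and tumours were taken 72 hours later, dissociated, freed of dead cells and enriched for CD45, the pan-leukocyte surface protein, with magnetic beads. Each group had 1 library, made by droplet-based sequencing of transcript 3′ ends, in which a unique molecular identifier (UMI) marks each captured transcript. No age, sex or number of mice per library was given. Barcodes carry a library number, 1 or 2, but no source ties the number to WT or knockout, so both libraries are given side by side as library 1 and library 2 and no direction between the groups is stated.

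Alternative activation is the state that macrophages take under interleukin 4 and interleukin 13, cytokines that signal through the transcription factor STAT6, and it is known from worm infection, allergy, wound repair and tumours. Its markers differ in kind. Mrc1 (the mannose receptor CD206), Msr1 (scavenger receptor A), Cd163 (the receptor for haemoglobin bound to haptoglobin) and Folr2 (folate receptor beta) are surface receptors, and Folr2 and Cd163 are also used as markers of macrophages resident in tissues. Retnla (RELM alpha, also called Fizz1), Chil3 (the chitinase-like protein Ym1) and Ear2 (an eosinophil-associated ribonuclease) are secreted proteins, and Cbr2 is a carbonyl reductase.

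The matrix held 5320 barcodes and 57488236 UMIs in library 1, and 7194 barcodes and 149734240 UMIs in library 2. After quality filters and removal of the cells most like doublets, 4977 and 6740 cells were kept, and 8 barcode sequences occurred in both libraries. Myeloid types were gated on marker genes that include none of the 8. The gates held 337 cells in library 1 and 1852 in library 2 for macrophage-like cells (at least 30 UMIs of C1qa, C1qb and C1qc per 10000), 90 and 610 for classical monocyte-like cells, and 23 and 126 for C1q-low monocyte-derived cells high in MHC class II. Further gates held 9 and 21 non-classical monocyte-like, 14 and 192 cDC2-like, 12 and 58 cDC1-like, 10 and 63 migratory dendritic cell-like and 19 and 38 plasmacytoid dendritic cell-like cells. All 10 macrophage markers had UMIs in the macrophage-like cells of both libraries. The 6 T cell markers summed there to 24.6 and 31.3 CPM, UMIs scaled to a fixed total of 1000000 UMIs of the same cells. Both follow in part from the gate, which selected on C1q and capped T cell markers. Another 24 and 209 myeloid cells were in no named type, and 11 and 98 of them lay between the lower and upper C1q limits. Apart from these, 792 and 1988 cells (15.9% and 29.5% of the cells kept) fell in no gate. Cells in no gate held 18.5% and 19.99% of all Chil3 UMIs, and 15.3% and 21.5% of all Ear2 UMIs. Macrophage-like cells had a median of 16118 UMIs in library 1 and 16649.5 in library 2, and no cell kept had fewer than 4000. Levels are UMIs summed over the cells of a type, as CPM, with exact 95% Poisson intervals. After each cell was thinned to 4000 UMIs, at most 0.680% of T cell-like cells in library 1 and 1.72% in library 2 held a UMI of any one of the 8 genes. The T cell gate required general myeloid markers under 20 per 10000, so these shares may understate RNA taken up from other cells. In NK cell-like cells, gated on low C1q without that limit, the shares were at most 0.787% and 1.81%. A type has 1 library per group, so intervals cover counting error only, no test was possible and no p-value is given.

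The stretch of DNA just before the gene start is shown for 4 of the genes. It sets the secreted markers, whose levels were unlike between the libraries, beside Mrc1, whose level was alike over all macrophage-like cells together. Within fixed ranges of MHC class II, given below, the Mrc1 level differed between the libraries. The RefSeq promoter table of build GRCm38.p6 matched 7 of the 8 genes, all but Msr1. Each sequence is on the strand of its gene and ends before the first base that GENCODE annotates as transcribed. It covers chr16:48842359-48842550 for Retnla, chr3:106167565-106167814 for Chil3, chr14:44102404-44102653 for Ear2 and chr2:14229164-14229391 for Mrc1. Capitals mark letters that match, on either strand, a STAT6-type motif (TTC and GAA with 4 bases of any kind between them), a C/EBP-type motif (TTGCNNAA) or a PU.1-type motif (GAGGAA).
Retnla: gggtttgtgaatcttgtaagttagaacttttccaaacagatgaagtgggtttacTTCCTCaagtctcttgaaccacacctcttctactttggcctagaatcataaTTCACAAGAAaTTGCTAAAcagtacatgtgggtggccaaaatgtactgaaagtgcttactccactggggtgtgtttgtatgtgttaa
Chil3: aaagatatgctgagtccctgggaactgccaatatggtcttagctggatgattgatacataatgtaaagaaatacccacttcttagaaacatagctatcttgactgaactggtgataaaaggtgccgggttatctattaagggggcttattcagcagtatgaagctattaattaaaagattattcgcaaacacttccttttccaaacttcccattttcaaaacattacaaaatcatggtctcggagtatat
Ear2: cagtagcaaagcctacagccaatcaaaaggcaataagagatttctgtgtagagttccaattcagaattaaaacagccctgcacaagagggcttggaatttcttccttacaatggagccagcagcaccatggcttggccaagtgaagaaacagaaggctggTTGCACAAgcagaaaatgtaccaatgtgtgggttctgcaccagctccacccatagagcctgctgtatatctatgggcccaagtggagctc
Mrc1: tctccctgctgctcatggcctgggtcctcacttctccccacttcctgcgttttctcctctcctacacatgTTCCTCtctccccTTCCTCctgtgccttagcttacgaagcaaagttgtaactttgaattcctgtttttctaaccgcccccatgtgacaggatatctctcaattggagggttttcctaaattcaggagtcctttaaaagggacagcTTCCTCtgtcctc
Of the windows read for the 7 matched genes, only that of Retnla held the STAT6-type letters in the 250 bases before the RefSeq start. The match begins 145 bases before that start, and a C/EBP-type match begins 134 bases before it. The STAT6-type letters occur in 5.854% of the 32851 mouse windows of that length, the C/EBP-type in 9.564% and the PU.1-type in 23.25%. Ear2 held 1 C/EBP-type match, Mrc1 held 3 PU.1-type matches, and Retnla and Cbr2 held 1 PU.1-type match each. The Cbr2 match lies inside the gene as GENCODE annotates it. Chil3, Folr2 and Cd163 held none of the 3 motifs in the window read. Folr2 has another RefSeq start inside the annotated gene, and the window before that start was not read. These are matches of letters in 1 window per gene and show no binding.

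In mm10, GENCODE release M21 places the protein-coding genes on 8 chromosomes. The receptor genes lie at chr2:14229392-14332057 (Mrc1, plus strand), chr8:39581685-39642673 (Msr1, minus strand), chr6:124304656-124330527 (Cd163, plus strand) and chr7:101839988-101857194 (Folr2, minus strand). The genes of secreted proteins lie at chr16:48842551-48844461 (Retnla, plus strand), chr3:106147554-106167564 (Chil3, minus strand) and chr14:44102654-44103534 (Ear2, plus strand), and Cbr2 at chr11:120729489-120732114 (minus strand). Reads near the 3′ end can fall where a gene has a close copy. Within the last 500 transcript bases, 29.9% of the 60-base stretches of Ear2, 20.2% of those of Cbr2 and 13.7% of those of Chil3 also occur in another annotated gene, against 0 for the other 5 genes. The copies were Ear1, Ear10 and 2 pseudogenes for Ear2, the pseudogene Gm11771 for Cbr2, and Chil4 and the pseudogene Gm6522 for Chil3. In macrophage-like cells Chil4 and Ear10 had 0 UMIs in both libraries and Ear1 had 0 and 1. No source used here states how reads shared by copies were counted, and the levels of Ear2, Chil3 and Cbr2 are uncertain to that extent.

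Macrophage-like cells held most UMIs of Mrc1, Retnla, Folr2, Msr1 and Cbr2 in both libraries. They held 82.3% of all Mrc1 UMIs in library 1 and 86.6% in library 2. Their share was 92.5% and 87.2% for Folr2, 89.1% and 87.8% for Cbr2, and 65.3% and 71.9% for Msr1. For Retnla it was 88.5% (881 of 996 UMIs) and 60.3% (304 of 504). Of the few Cd163 UMIs they held 10 of 20 (50%) in library 1, where T cell-like cells held 4, and 230 of 276 (83.3%) in library 2. Classical monocyte-like cells held 62.0% and 59.5% of the Chil3 UMIs. Among the 3 types with at least 20 cells in each library (macrophage-like, classical monocyte-like and MHC-II-high monocyte-derived-like), the highest level lay in the same type in both libraries for 5 of the 8 genes: macrophage-like for Mrc1, Folr2, Cd163 and Cbr2, and classical monocyte-like for Chil3. For Cd163 in library 1 this rests on 10 UMIs against 1 in classical monocyte-like cells, with overlapping intervals. With marker limits doubled, Cd163 stood there at 1.24 CPM in macrophage-like and 1.81 CPM in classical monocyte-like cells, and the count was 4. For Msr1, Retnla and Ear2 the leading type changed from library to library. For Retnla the lead of MHC-II-high monocyte-derived-like cells in library 2 rests on 35 UMIs in 2 cells.

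**Figure D1:**
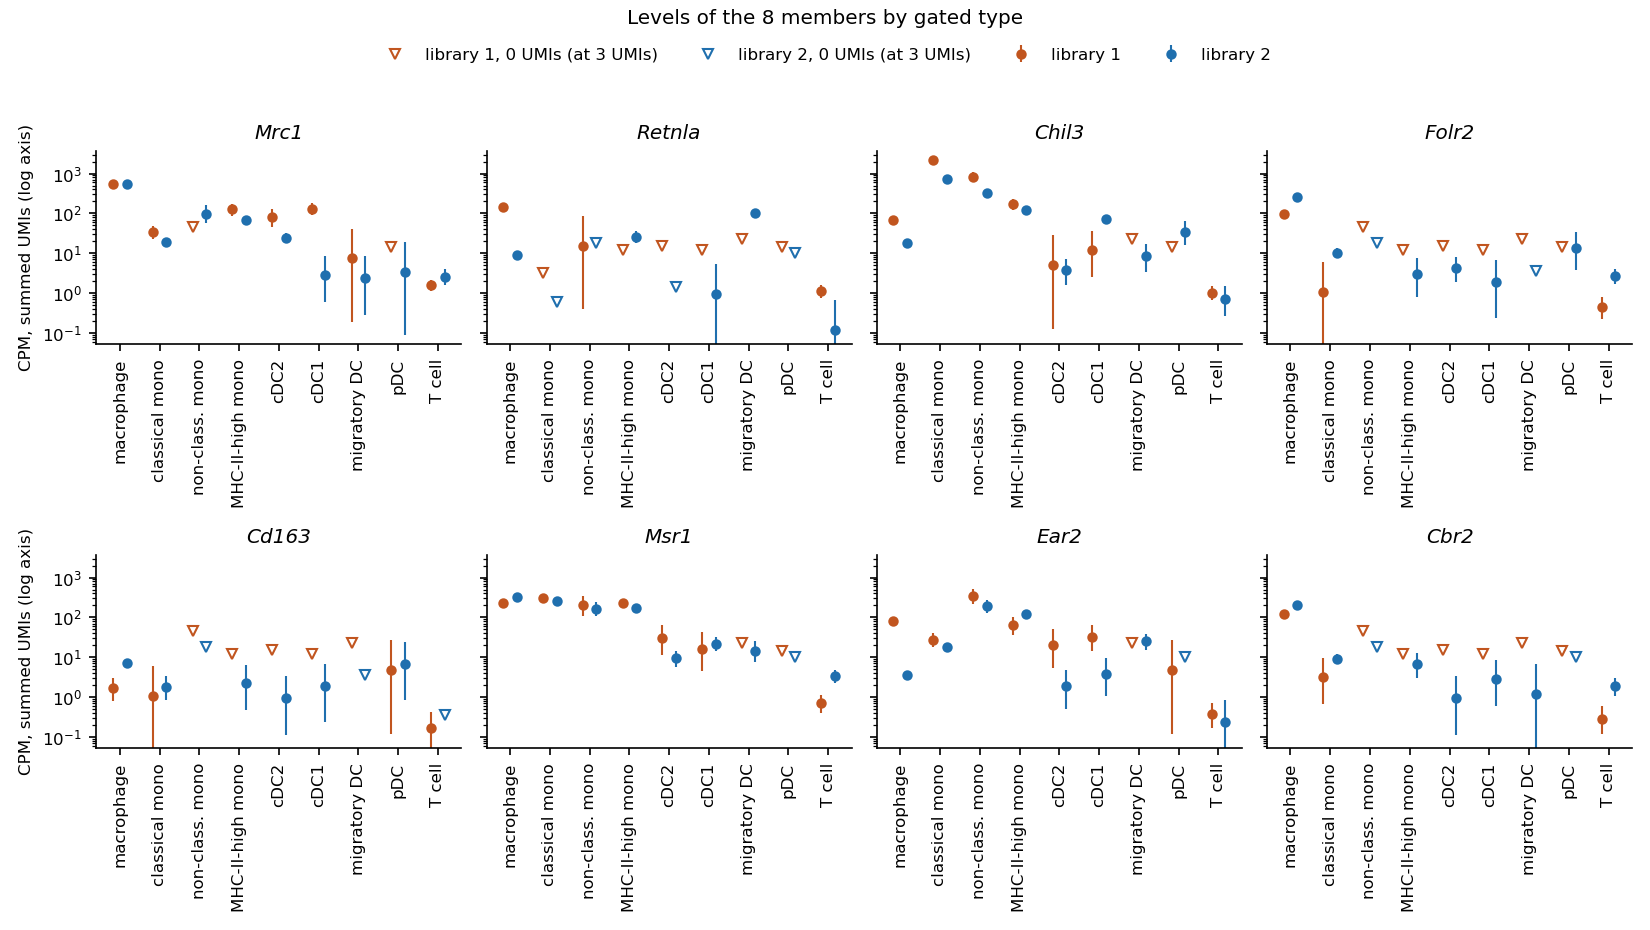
Level of each gene as CPM of summed UMIs (log axis) in 8 gated myeloid types and in T cell-like cells, library 1 in orange and library 2 in blue. Points are levels with exact 95% Poisson intervals, and open triangles mark 0 UMIs, drawn at the level of 3 UMIs. Mrc1 stands at 545 and 548 CPM in macrophage-like cells, and Chil3 at 2209.6 and 716 CPM in classical monocyte-like cells.

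Mrc1 reached 545 CPM (527 to 564) and 548 CPM (539.99 to 556) in macrophage-like cells of libraries 1 and 2, and the intervals overlap. Of the 3 types with at least 20 cells in each library, MHC-II-high monocyte-derived-like cells followed with 126 CPM (85.9 to 177) and 68.4 CPM (55.1 to 83.9). Classical monocyte-like cells had 34.3 CPM (23.4 to 48.4) and 19.4 CPM (15.7 to 23.7). The order of the 3 types was the same in both libraries, with intervals apart between neighbours. Among smaller groups, cDC1-like cells had 131 CPM in library 1, with 30 of 32 UMIs in 1 cell, and 2.87 CPM in library 2. Non-classical monocyte-like cells had 0 UMIs in library 1 and 98.7 CPM in library 2. Myeloid cells in no named type had 265 and 136 CPM. Mrc1 was also the most widely held member in macrophage-like cells of library 1: 87.2% of cells held at least 1 UMI, against 85.7% in library 2. In T cell-like cells, which should lack the gene, 1.20% and 3.16% held a UMI, at median depths of 6310 and 9963 UMIs.

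Msr1 was unlike the other receptors in being about as high in monocytes as in macrophages. Macrophage-like cells had 229 CPM (217 to 241) and 319 CPM (313 to 325), and classical monocyte-like cells 306 CPM (272 to 344) and 253 CPM (239 to 267). The order of these types was thus opposite in the libraries, each time with intervals apart. MHC-II-high monocyte-derived-like cells lay close by, at 228 CPM (173 to 294) and 174 CPM (152 to 198). cDC2-like and cDC1-like cells had 9.30 to 30.1 CPM.

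Folr2 and Cbr2 were higher in the macrophage gate than in any other named type, with intervals apart. Folr2 stood at 95.7 CPM (88.1 to 104) and 255 CPM (249 to 260.4) there, and 33.8% and 65.9% of the cells held a UMI. In classical monocyte-like cells it had 1 UMI in library 1 and 51 in library 2 (10.3 CPM), and in MHC-II-high monocyte-derived-like cells 0 and 4 UMIs. Its level in T cell-like cells was 0.453 and 2.72 CPM. Cbr2 stood at 121 CPM (113 to 130.2) and 206 CPM (201 to 211) in macrophage-like cells, with a UMI in 40.9% and 52.4% of them, at 3.21 and 9.09 CPM in classical monocyte-like cells, and at 0 UMIs and 6.69 CPM in MHC-II-high monocyte-derived-like cells. In the monocytes of library 2, 19 of the 45 Cbr2 UMIs came from 1 cell.

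Cd163 was sparse everywhere. All cells kept held 20 Cd163 UMIs in library 1 and 276 in library 2. Macrophage-like cells held 10 UMIs in 8 cells (1.65 CPM, 0.791 to 3.04) and 230 UMIs in 95 cells (7.01 CPM, 6.13 to 7.97). T cell-like cells held 4 UMIs and 0 UMIs.

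Chil3 was highest in monocytes. Classical monocyte-like cells had 2209.6 CPM (2115 to 2307) and 716 CPM (692 to 739.5), with a UMI in 80% and 60% of the cells. With clusters in place of gates, library 1 stood at 1179.98 CPM. Non-classical monocyte-like cells had 845 and 321 CPM in 9 and 21 cells, with 35 of the 55 UMIs of library 1 in 1 cell. Macrophage-like cells had 69.5 CPM (63.0 to 76.4) and 18.3 CPM (16.9 to 19.9), and T cell-like cells 1.03 and 0.711 CPM. In MHC-II-high monocyte-derived-like cells 36 of the 43 UMIs of library 1 came from 1 cell. Without the cell with the most Chil3 in each library, the level there was 28.4 CPM in library 1 and 112 CPM in library 2, against 169 and 123 CPM with it. Chil3 is also made by neutrophils. The 6 neutrophil markers summed to 164 and 125 CPM in classical monocyte-like cells. The 6 classical monocyte markers summed to 14967 and 10368 CPM there, but they set the gate and were high by selection. The part of neutrophils in the Chil3 counts was not tested.

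Within classical monocytes, cells were ranked by Ly6c2, which falls as monocytes mature and is 1 of the markers of the gate, and cut into 3 equal parts (terciles). Chil3 stood at 2196 CPM in the lowest tercile, 3011 CPM in the middle and 1314 CPM in the highest of library 1, and at 643, 730.3 and 774 CPM in library 2. Ear2 was lowest where Ly6c2 was highest. It had 48.0, 32.2 and 3.32 CPM in library 1 (14, 11 and 1 UMIs) and 31.8, 17.3 and 3.79 CPM in library 2 (52, 30 and 6 UMIs).

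Retnla and Ear2 were held by few cells. Retnla had 881 UMIs in 32 of 337 macrophage-like cells of library 1 and 304 UMIs in 19 of 1852 of library 2. A single cell held 533 of the 881 UMIs (60.5%), or 533 of the 17031 UMIs of that cell, and 1 cell of library 2 held 140 of the 304. Classical monocyte-like cells held 0 Retnla UMIs in both libraries, which allows, taking 3 UMIs as the limit of a count of 0, up to 3.21 CPM in library 1 and 0.606 CPM in library 2 (the upper ends of the Poisson intervals are 3.95 and 0.745 CPM). In MHC-II-high monocyte-derived-like cells Retnla had 0 UMIs in library 1 and 35 UMIs in 2 cells of library 2. In migratory dendritic cell-like cells of library 2 all 86 Retnla UMIs lay in 1 of 63 cells.

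Ear2 had 500 UMIs in 55 macrophage-like cells of library 1, with 65 of them in 1 cell, and 117 UMIs in 32 cells of library 2. The level was 82.5 CPM (75.4 to 90.1) and 3.56 CPM (2.95 to 4.27). MHC-II-high monocyte-derived-like cells had 62.8 CPM (35.9 to 101.9) and 123 CPM (105 to 143), and classical monocyte-like cells 27.8 CPM (18.2 to 40.8) and 17.8 CPM (14.3 to 21.9). Among the named types Ear2 had its highest level in the few non-classical monocyte-like cells, at 338 CPM (212 to 512) and 191 CPM (130 to 271). Myeloid cells in no named type had 393 CPM in library 1, with 88 of 114 UMIs in 1 cell, and 4.30 CPM in library 2. In T cell-like cells it had 0.371 and 0.237 CPM.

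**Figure D2:**
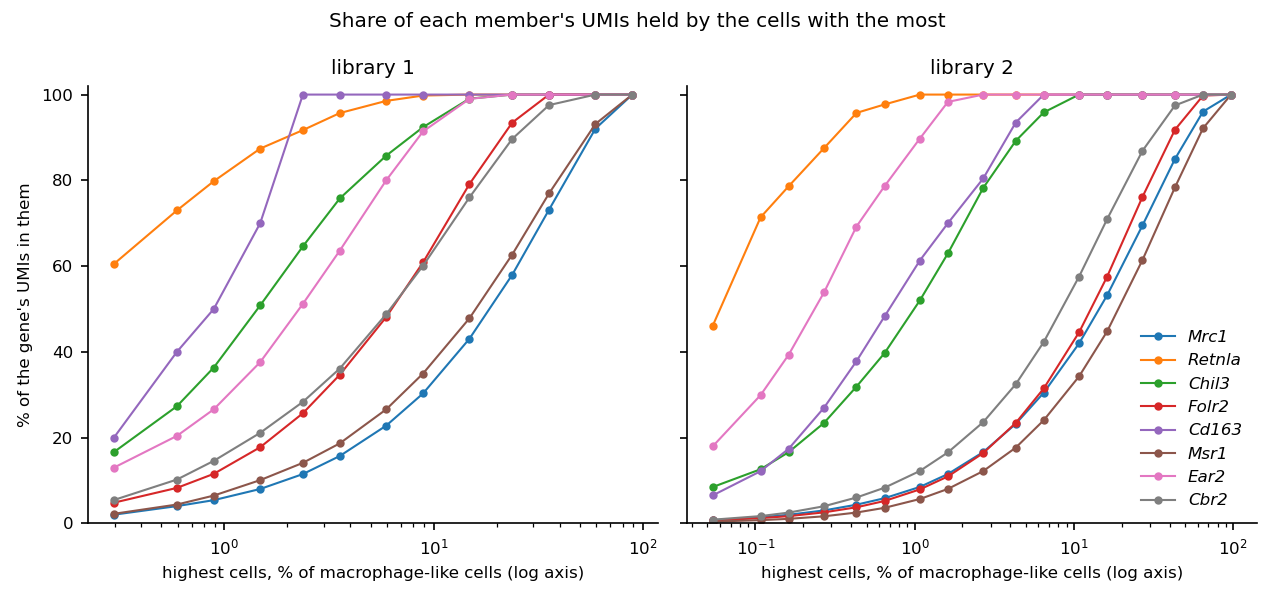
Share of each gene's UMIs (vertical axis, percent) held by the macrophage-like cells with the most UMIs of that gene, against the share of macrophage-like cells that these make up (log axis), in library 1 (left) and library 2 (right). The first point of each line is 1 cell: 60.5% of the Retnla UMIs of library 1 and 2.03% of its Mrc1 UMIs lie there.

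The UMIs of the secreted genes were concentrated in few macrophage-like cells. Cells with at least 10 UMIs made up 2.37% of macrophage-like cells for Retnla, 3.56% for Chil3 and 4.75% for Ear2 in library 1 (8, 12 and 16 cells) and held 91.7%, 75.8% and 73.4% of the UMIs of the gene. In library 2 they made up 0.378%, 0.864% and 0.162% (7, 16 and 3 cells) and held 94.4%, 46.7% and 39.3%. The T cell-like cell with the most held 5 UMIs of Retnla, 2 of Chil3 and 4 of Ear2, while among NK cell-like cells of library 2 1 cell held 20 of Chil3 and 1 held 10 of Ear2. To reach 50% of the UMIs of a gene took 63 and 269 cells of libraries 1 and 2 for Mrc1, 54 and 356 for Msr1, 22 and 239 for Folr2 and 21 and 158 for Cbr2. It took 5 and 19 for Chil3, 8 and 5 for Ear2, and 1 and 2 for Retnla. Cd163, sparse and with few UMIs, took 3 and 13 cells, fewer than Chil3.

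Part of the cells with Retnla also held Ear2. After every cell was thinned to 4000 UMIs, 6 of 20 macrophage-like cells with Retnla in library 1 also held Ear2 (30%, 11.9 to 54.3%, exact Clopper-Pearson), against 7.89% (5.17 to 11.4%) of cells without Retnla. In library 2, 3 of 9 did (33.3%, 7.49 to 70.1%), against 0.543% (0.260 to 0.996%). Neither pair of intervals overlaps, although the numbers of cells are small. Without thinning, the cell with the most Retnla was also the cell with the most Ear2 in 3 types of library 2. In library 1 they differed: the Retnla cell with 533 UMIs held 25 of Ear2, and the Ear2 cell with 65 held 1 of Retnla. The shared cells of library 2 held 140 Retnla and 21 Ear2 UMIs in macrophage-like, 23 and 58 in MHC-II-high monocyte-derived-like and 86 and 19 in migratory dendritic cell-like cells. These cells were singled out after their values were seen.

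Overlap in single cells was examined for all 28 pairs in macrophage-like cells thinned to 4000 UMIs. The number of cells with both genes is set beside the product of the shares of both genes, a plain arithmetic reference. Pairs with a product of at least 5 cells numbered 16 in library 1, of which 10 lay above the product, and 19 in library 2, of which 14 did. Retnla with Ear2, described above, fell under that minimum in both libraries.

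Folr2 and Cbr2 lay above the product in both libraries. In library 1, 40 cells held both against a product of 16.5, and in library 2, 416 against 259. Cbr2 was held by 54.8% (42.7 to 66.5%) of the cells with Folr2 in library 1 and by 13.6% (9.74 to 18.4%) of those without. In library 2 these shares were 52.3% (48.8 to 55.8%) and 17.7% (15.4 to 20.1%). Cd163 went with both in library 2: 28 of its 37 cells held Cbr2, against a product of 12.05, and 29 held Folr2, against 15.9. Of the 37 cells, 36 also held Mrc1. Mrc1 itself overlapped with Cbr2 in 67 cells against 53.4 in library 1 and in 486 against 392 in library 2, and with Folr2 in 60 against 51.3 and in 630 against 517.

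Chil3 lay below the product with these genes. It met Cbr2 in 0 cells against a product of 6.77 in library 1 and in 10 against 26.0 in library 2. It met Folr2 in 1 cell against 6.499 and in 16 against 34.3, and Mrc1 in 11 against 21.1 and in 23 against 52.0. Chil3 with Msr1 was close to the product, at 14 cells against 13.8 and 54 against 50.9. Ear2 with Cbr2 stood at 2 cells against 6.99 in library 1, and the product was under 5 cells in library 2. In classical monocyte-like cells of library 2, Ear2 lay with Chil3: 28 cells held both against 18.1, and 8.89% (5.99 to 12.6%) of cells with Chil3 held Ear2 against 2.37% (0.959 to 4.83%) of cells without. In library 1 the pair was at the product, with 6 cells against 5.87, and the shares, 9.09% (3.41 to 18.7%) and 8.33% (1.03 to 26.997%), overlapped.

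**Figure D3:**
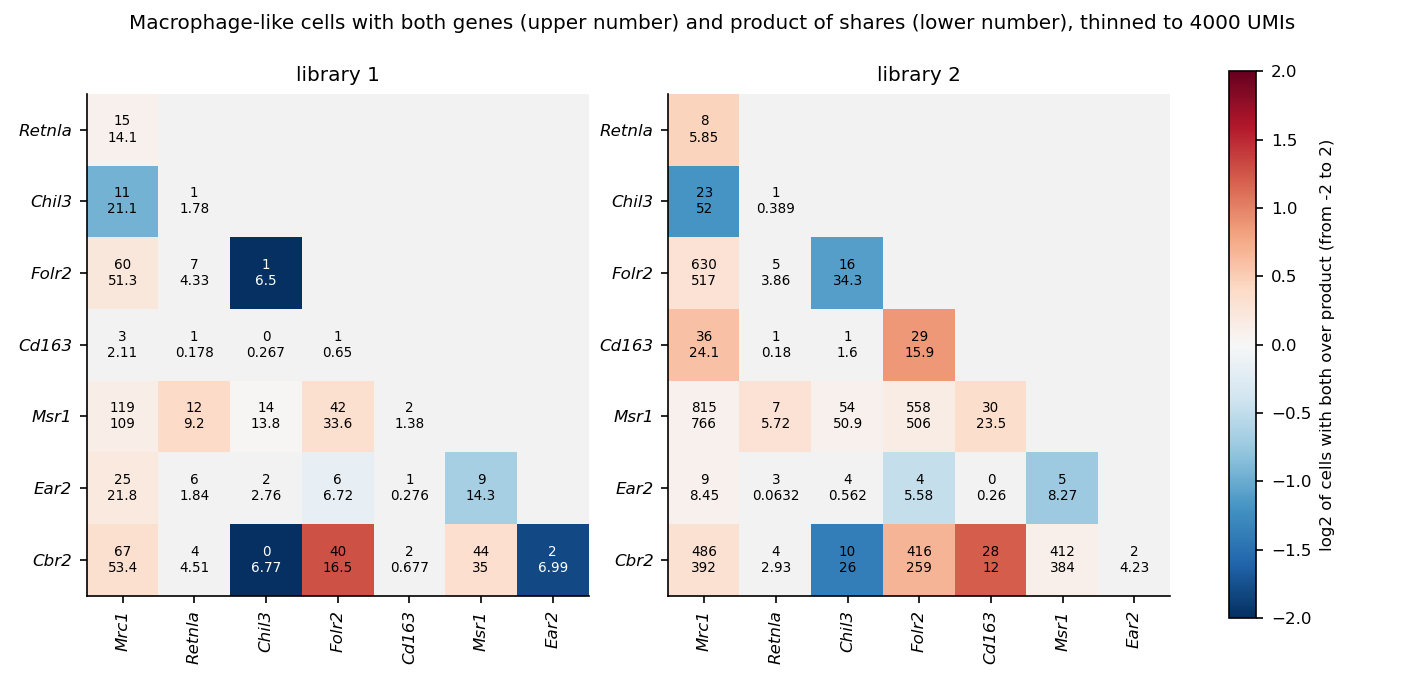
Pairs of genes in macrophage-like cells thinned to 4000 UMIs, library 1 (left) and library 2 (right). Each square gives the number of cells with both genes (upper) over the product of the shares (lower), coloured by the log2 of their ratio where the product is at least 5 cells and limited to the range of the colour bar. Folr2 with Cbr2 is red in both libraries (40 against 16.5 and 416 against 259), and Chil3 with Mrc1, Folr2 and Cbr2 is blue in both.

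Macrophage-like cells with and without Chil3 also differed in other marker genes. After thinning, the 30 cells with Chil3 in library 1 had a median of 59.4 UMIs of the 6 classical monocyte markers per 10000, against 5.74 in the 307 without, and a median C1q of 92.6 against 148 per 10000. In library 2 these medians were 54.5 against 3.73 and 90.2 against 191, for 80 and 1772 cells. Cells with Folr2 or Cbr2 stood on the other side. Their median of classical monocyte markers was 1.68 and 1.51 in library 1, against 8.23 and 8.46 in cells without the gene, and 1.72 and 1.58 in library 2, against 5.85 and 5.21. C1q set the gate, so its values describe cells already above a limit.

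MHC class II, which presents antigen to helper T cells and was no part of the macrophage gate, ordered most of the genes. Macrophage-like cells of each library were ranked by UMIs of H2-Aa, H2-Ab1, H2-Eb1 and Cd74 per 10000 and cut into terciles, which are ranges of a score and not cell types. From the lowest to the highest tercile, Folr2 stood at 205, 83.4 and 14.3 CPM in library 1 and at 375, 279.9 and 92.0 CPM in library 2. Cbr2 stood at 269, 89.8 and 25.3 CPM, and at 322, 226 and 52.2 CPM. Msr1 stood at 342, 225 and 138 CPM, and at 362, 361 and 226 CPM. All 3 were lowest in the highest tercile in both libraries, with intervals apart from the lowest tercile. The terciles cover other ranges in each library.

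Mrc1 stood at 594, 624 and 430.0 CPM in library 1 and at 748, 597 and 268 CPM in library 2, lowest in the highest tercile of both. Cd163 had 10.3, 8.497 and 1.65 CPM in library 2, and its 10 UMIs of library 1 gave no order. Ear2 ran the other way. It stood at 17.9, 78.0 and 142 CPM in library 1, and 115 of its 117 UMIs in library 2 lay in the highest tercile. Retnla lay mostly in the highest tercile in library 2, with 297 of 304 UMIs, while in library 1 it had 80.1, 284 and 70.8 CPM, the middle value including the cell with 533 UMIs. Chil3 had 165, 33.9 and 22.1 CPM in library 1 and 10.4, 16.2 and 29.6 CPM in library 2, over these unlike ranges. In fixed ranges of under 5, 5 to 50 and at least 50 MHC class II UMIs per 10000, the order was alike. There Chil3 stood at 103, 168 and 52.6 CPM in library 1 and at 10.2, 50.5 and 19.1 CPM in library 2, highest from 5 to 50 in both.

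**Figure D4:**
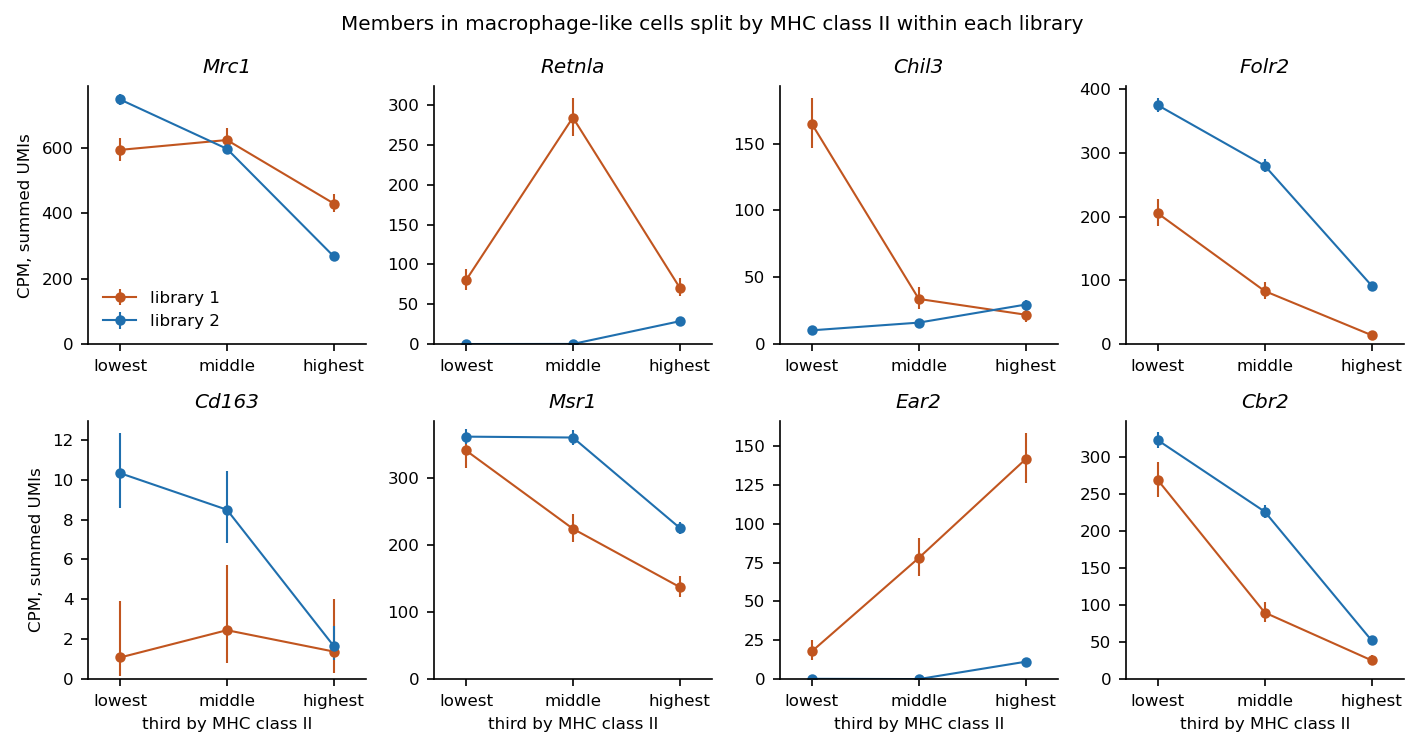
Level of each gene (CPM of summed UMIs with exact 95% Poisson intervals) in macrophage-like cells cut into terciles by MHC class II within each library, library 1 in orange and library 2 in blue. Folr2, Cbr2 and Msr1 are lowest in the highest tercile of both libraries (14.3 and 92.0 CPM for Folr2), Ear2 is highest there (142 and 11.2 CPM), and the terciles cover different MHC class II ranges in the libraries.

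The libraries were then set side by side within each type. A gene with at least 100 UMIs over both libraries in the type was called when its CPM differed at least 2-fold and its interval excluded 1.5-fold. In macrophage-like cells 3 of the 8 genes were called higher in library 1 (Retnla, Chil3 and Ear2, all secreted) and 2 were called higher in library 2 (Folr2 and Cd163). Over all 9882 genes with that many UMIs, 2.32% were called higher in library 1 and 1.32% in library 2. The median log2 ratio of library 1 over library 2 was -0.24 over the 8 genes and 0.05 over all 9882.

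Ear2 had a log2 ratio of 4.53 (4.24 to 4.84), Retnla of 3.97 (3.78 to 4.17) and Chil3 of 1.92 (1.74 to 2.10). When the cell with the most UMIs of the gene was left out of each library, the log2 ratios were 4.62 for Ear2, 3.53 for Retnla and 1.80 for Chil3, and all 3 were still called; for Retnla this lowered library 1 from 145 to 57.6 CPM. With marker limits doubled, Retnla stood at 5.04 and Ear2 at 5.12, and with cells thinned to 4000 UMIs Retnla stood at 4.59. With types from clusters in place of gates, Retnla stood at 4.21, above Ear2 at 3.94, and the call for Chil3 was lost (0.91). The share of cells with a Retnla UMI after thinning was 5.93% (3.66 to 9.02%) in library 1 and 0.486% in library 2, and with Ear2 9.20% and 0.702%, against 0.421% and 0 for Retnla and 0.0971% and 0 for Ear2 in T cell-like cells. In the other direction, Folr2 had a log2 ratio of -1.41 (-1.54 to -1.29) and Cd163, with 10 UMIs in library 1, of -2.09 (-3.17 to -1.18). Cbr2 at -0.77 (-0.88 to -0.66) and Msr1 at -0.48 (-0.56 to -0.40) were also lower in library 1 but under 2-fold, and Mrc1 was at -0.01 (-0.06 to 0.05).

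MHC class II differed between the libraries too. Macrophage-like cells had a median of 225 MHC class II UMIs per 10000 in library 1 and 2.67 in library 2. The gate for B cells, which also make MHC class II, held 403 and 0 cells. The 5 B cell markers summed to 22.9 and 12.4 CPM in macrophage-like cells, whose gate capped these markers. The part of B cells in the MHC class II values was not tested. In cells with at least 50 MHC class II UMIs per 10000 (262 and 399 cells), a comparison added after the data were seen, Folr2 stood at 61.7 and 63.9 CPM, a log2 ratio of -0.05 (-0.27 to 0.16). Msr1 stood at 199.7 and 199.8 CPM there. In cells with under 5 (29 and 1138 cells) Folr2 had a log2 ratio of -0.40 (-0.68 to -0.13), and between 5 and 50 (46 and 315 cells) one of 0.53 (0.28 to 0.77), so it was called in none of the 3 ranges. The 3 secreted genes remained higher in library 1 in the range from 50: Ear2 at 2.72 (2.41 to 3.04), Retnla at 1.96 (1.76 to 2.16) and Chil3 at 1.46 (1.15 to 1.78). The cell with 533 Retnla UMIs lies in that range. Without the richest cell of each library, Retnla there stood at 58.2 CPM in place of 166 in library 1 and at 22.1 CPM in place of 42.7 in library 2, a log2 ratio of 1.396 (1.11 to 1.69), with Ear2 at 2.84 and Chil3 at 1.74. Mrc1 and Cbr2, not called over all macrophage-like cells, were higher in library 1 in that range, at 1.21 (1.12 to 1.30) and 1.24 (1.00 to 1.49). Between 5 and 50, Mrc1 stood at 0.93, Cbr2 at 1.64 and Msr1 at 0.25. Under 5, Mrc1 was lower in library 1, at -0.54 (-0.74 to -0.34), while Cbr2 stood at 0.29 and Msr1 at 0.14. Retnla and Ear2 had 0 UMIs in the 29 cells of library 1 under 5.

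**Figure D5:**
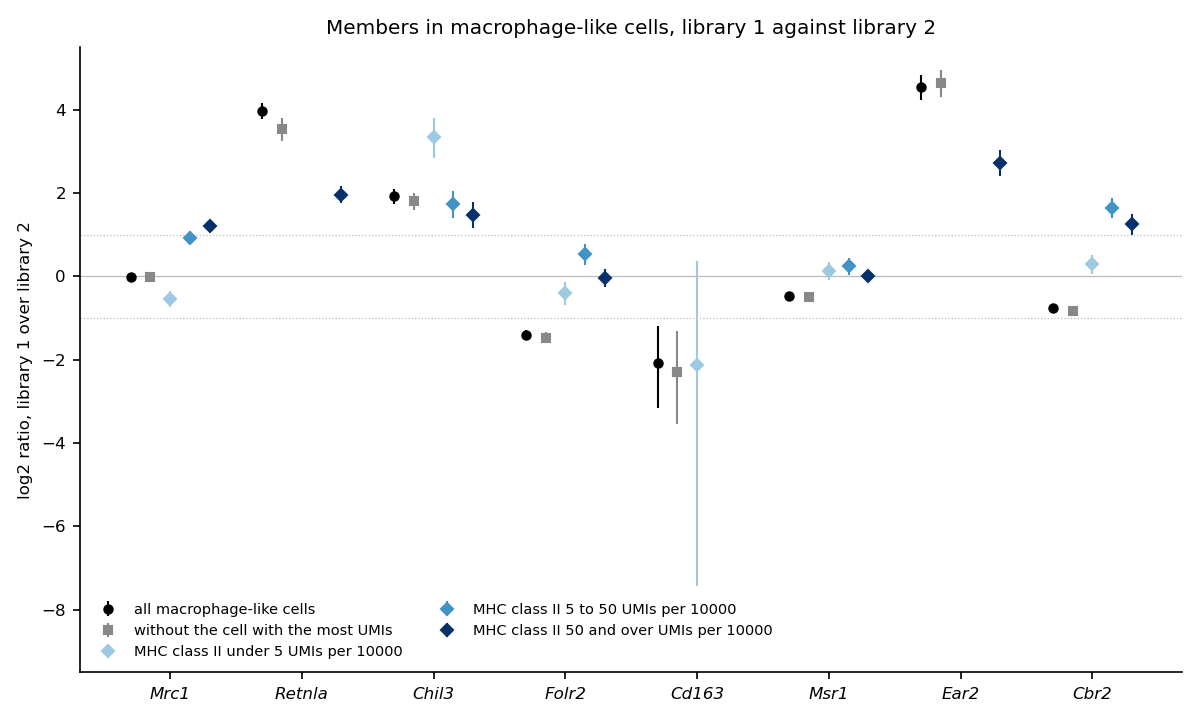
Log2 ratio of library 1 over library 2 in macrophage-like cells for each gene with at least 100 UMIs in the comparison: all cells, all but the cell with the most UMIs of the gene, and cells in 3 fixed ranges of MHC class II. Bars are exact conditional binomial 95% intervals for counting error, and dotted lines mark 2-fold. The Folr2 points move from -1.41 over all cells to -0.05 in cells with at least 50 MHC class II UMIs per 10000, while Ear2, Retnla and Chil3 stay above 0.

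In classical monocyte-like cells, 4 of the 8 genes had at least 100 UMIs and 1 was called higher in library 1, against 2.43% of the 4777 genes compared, and 0 in library 2, against 0.921%. The gene was Chil3, with a log2 ratio of 1.63 (1.55 to 1.71). It stood at 1.54 without the cell with the most UMIs, at 1.03 with clusters in place of gates and at 2.29 in cells of at least 10000 UMIs. Cells with at least 10 Chil3 UMIs made up 56.7% (45.8 to 67.1%) of these monocytes in library 1 and 23.0% (19.7 to 26.5%) in library 2, at median depths of 9934 and 7625.5 UMIs. With each cell thinned to 4000 UMIs, 73.3% (62.97 to 82.1%) and 51.6% (47.6 to 55.7%) held at least 1 Chil3 UMI. Mrc1 had a log2 ratio of 0.82 (0.20 to 1.41), Ear2 of 0.65 (-0.04 to 1.29) and Msr1 of 0.27 (0.08 to 0.46). In MHC-II-high monocyte-derived-like cells 0 of the 4 genes compared were called in either direction, against 2.34% and 1.89% of 2007 genes. Ear2 came nearest with -0.97 (-1.81 to -0.22), and 58 of its 165 UMIs of library 2 lay in 1 cell.

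Other genes of the programme were read from 2 lists. The first, set for the response to interleukin 4 and 13, had 20 genes, among them Il4ra, Il13ra1 and Stat6 of the signalling chain. Whether each gene responds in these cells was not tested. Of the 20, 18 could be compared in macrophage-like cells. Among these, 9 were called higher in library 1 and 1 in library 2, against 2.32% and 1.32% of all genes compared. Their median log2 ratio was 0.90, against 0.05 over all genes. The macrophage-like cells differed in MHC class II between the libraries (medians of 225 and 2.67 UMIs per 10000). The list was not compared within ranges of MHC class II. The 9 included the chemokines Ccl17 (65.0 and 1.25 CPM), Ccl24 (16.8 and 3.20 CPM) and Ccl8 (839 and 305 CPM), the lectin Mgl2 (208 and 12.5 CPM), Pdcd1lg2, the ligand PD-L2 (17.3 and 0.914 CPM), and the transcription factor Irf4 (12.7 and 2.498 CPM). Arg1, an arginase widely used as a marker of this state, stood at 639 and 565 CPM, a log2 ratio of 0.18. Il4ra, the receptor chain shared by both cytokines, stood at -0.09 and Stat6 at 0.08. The gene called higher in library 2 was Fcrls (280.2 and 928 CPM). Dendritic cells also make Ccl17, Ccl22, Mgl2, Pdcd1lg2 and Irf4. In the same macrophage-like cells the 6 cDC1 markers summed to 251 and 91.3 CPM, the 7 cDC2 markers to 168 and 122 CPM and the 6 migratory dendritic cell markers to 16.8 and 20.02 CPM. The 7 markers of MHC-II-high monocyte-derived cells (H2-Aa, H2-Ab1, H2-Eb1, Cd74, Lyz2, Csf1r and Ccr2) summed to 35488 and 19300 CPM. They include the MHC class II genes used above and the macrophage marker Csf1r, so the sum does not measure another cell type. The part of dendritic and monocyte-derived cells in the counts was not tested.

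Of 20 genes linked to resident macrophages, 14 could be compared; 1 was called higher in library 1 and 6 in library 2, against the same 2.32% and 1.32% of all genes, with a median log2 ratio of -0.84 against 0.05. The 6 were Pf4 (257 and 1670.2 CPM), F13a1 (55.6 and 224 CPM), the hyaluronan receptor Lyve1 (4.46 and 10.4 CPM), the haem-degrading enzyme Hmox1 (109.9 and 257 CPM), the lectin Fcna (8.09 and 17.3 CPM) and the complement receptor Vsig4, which had 0 and 124 UMIs. The gene higher in library 1 was the growth factor Igf1 (102.3 and 27.7 CPM). In classical monocyte-like cells 8 and 9 genes of the lists could be compared; 0 were called in the first and 2, Pf4 and Hmox1, were called higher in library 2 in the second, against 2.43% and 0.921% of all genes. In MHC-II-high monocyte-derived-like cells 4 and 4 could be compared, with 0 called in the first and 1, Hmox1, higher in library 2 in the second, against 2.34% and 1.89%. These counts are descriptions of 2 libraries, and this list too was not compared within ranges of MHC class II.

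Level profiles were compared with those of 3348 other genes over 6 points, the 3 types in the 2 libraries, which share libraries and depth. Folr2 was most like Itm2b (Pearson r = 0.992), Cbr2 (0.992) and Syngr1 (0.992), and Cbr2 most like Itm2b (0.996), Gpr34 (0.994) and C1qc (0.994). Mrc1 was most like Arrb2 (0.998), Nudcd2 (0.995) and Dmxl1 (0.993), and Chil3 most like Ifi211 (0.996), Capzb (0.994) and Irf2 (0.991). Retnla (Plxdc2, 0.962), Msr1 (Akirin1, 0.941) and Ear2 (Tnip3, 0.933) had less close matches, and Cd163 was too low for the comparison. With 6 points such values are descriptions only.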

How the data were processed

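The authors deposited 1 matrix of raw UMI counts for both libraries, from alignment to mm10 by Cell Ranger according to the submitters' processing notes. The header line of the matrix names version 3.1.0. No source used here states the annotation or the counting settings. Cells needed at least 200 genes, 500 UMIs and at most 10% mitochondrial UMIs. The automatic threshold of Scrublet marked 0 barcodes, so the 5% with the highest scores in each library were removed.

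Types were gated on marker UMIs per 10000, with limits set after the marker sums were seen and never from the 8 genes. The members, gene lists and comparisons were chosen with earlier results of these data known. The genes named are the 8, those of both lists, close relatives, and the 3 genes with the profile closest to each member (Pearson correlation of the log2 of CPM + 10 over the 3 types with at least 20 cells in each library, among genes of at least 50 CPM in 1 of these points). For shares and overlaps each cell was thinned to 4000 UMIs. Intervals are exact, at the 95% level: Poisson for CPM, Clopper-Pearson for shares and conditional binomial for ratios. The code was tested on simulated data. With 1 library per group no test was possible.

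Alternatives were other gate limits, doublets kept, Leiden clusters (scanpy 1.11.5), equal weight per cell, subtraction of the T cell level, depth, scaling and a minimum of 2 UMIs. Added after the data were seen were the richest cell left out, fixed MHC class II ranges and both together, the ranking of monocytes by Ly6c2, cells of at least 10 UMIs, and the comparison of cells with and without a gene.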

Additional observations from a re-analysis of the deposited data

How the results depend on the processing

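Some planned counts and single ratios moved in ways a reader needs. With marker limits doubled, 1 gene (Chil3, log2 ratio 1.48) was called higher in library 1 in MHC-II-high monocyte-derived-like cells in place of 0. With Leiden clusters, 2 genes were called higher in library 1 in classical monocyte-like cells in place of 1, Mrc1 (1.35) being added. With cells thinned to 4000 UMIs, 1 gene was called higher in library 2 in macrophage-like cells in place of 2, since Cd163 then had too few UMIs to be compared. In cells of at least 10000 UMIs, 1 gene (Ear2, -1.69) was called higher in library 2 in MHC-II-high monocyte-derived-like cells in place of 0. When a cell needed 2 UMIs to hold a gene, 100% of the counted pairs of classical monocyte-like cells lay above the product of shares in both libraries. This stood in place of 60% of 5 pairs and 55.6% of 9. The minimum of 2 UMIs cannot raise these numbers of pairs, so the 100% rests on few.

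In macrophage-like cells the sign turned under 5 MHC class II UMIs per 10000 for Msr1 (0.14) and Cbr2 (0.29), from 5 to 50 for Mrc1 (0.93), Folr2 (0.53), Msr1 (0.25) and Cbr2 (1.64), and from 50 for Mrc1 (1.21, and 1.22 without its richest cells) and Cbr2 (1.24, and 1.22). It turned for Chil3 (-1.98) in MHC-II-high monocyte-derived-like cells without the richest cell of each library and, uncalled, for Msr1 (-0.12) in classical monocyte-like cells of at least 10000 UMIs; the cause was not tested. The Mrc1 ratio of macrophage-like cells, near 0, also turned with limits halved (0.02), clusters (0.18) and thinning (0.12). Genes with the same leading type in both libraries numbered 4 with limits doubled and 6 with clusters or equal weight per cell, in place of 5. With T cell levels subtracted, doublets kept or ratios scaled to the median gene, all 16 ratios kept their direction and call. No paired analysis was possible because each group has 1 library. Few UMIs limit Cd163, and few cells limit the dendritic types.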
